A study of Mus musculus with 24 samples.

Results

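Cis-3-hexenol, an unsaturated alcohol that gives cut leaves their green smell, was set against octanal, a straight-chain aldehyde with a citrus smell, by counting messenger RNA in the olfactory epithelium of mice that had breathed 1 of the 2. The comparison takes the 3 cis-3-hexenol and the 3 octanal libraries, 6 of the 24 libraries of the series, and covers every gene that passed a filter on low counts (19175 of 57010). All animals were wild-type male C57BL/6J mice of 8 weeks, kept singly for 4 h in a chamber free of odor. A filter paper carrying 10 µL of undiluted cis-3-hexenol or undiluted octanal was then placed in the chamber for 90 min. In the same batch, labelled OC, 3 mice had 10 µL of a 1:1 mixture of both (OC mixture) and 3 had an empty paper (no odor). Every animal was perfused with chilled buffer holding cycloheximide and phosphatase inhibitors, agents that the no-odor mice share, and RNA was purified and made into stranded poly(A) libraries. The labels describe both a supernatant cleared by centrifugation and an aliquot of homogenate, and it is not clear from them which of these gave the RNA. The labels call the 3 mice of a group biological replicates and tie none of them to a litter or day.

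Odorants reach the olfactory epithelium in mucus, where each sensory neuron displays a single type of odorant receptor chosen from a very large family. A bound receptor acts through the G protein subunit encoded by Gnal and the adenylyl cyclase encoded by Adcy3, cAMP opens the cation channel built around Cnga2, and the neuron fires. Calcium and cAMP then switch on immediate early genes, while supporting sustentacular and gland cells hold cytochromes and other enzymes that metabolise odorants. Aldehydes and alcohols are both substrates of such enzymes, through aldehyde and alcohol dehydrogenases.

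The tissue matched its label. Omp, which marks mature olfactory sensory neurons, stood at 10318, 11025 and 10193 CPM (counts scaled to the library size by TMM) with cis-3-hexenol and at 9659, 9264 and 9704 CPM with octanal. Cyp1a2, a cytochrome of sustentacular cells, stood at 742, 702 and 768 CPM with cis-3-hexenol and 829, 837 and 882 CPM with octanal. Markers of neighbouring bone, marrow and blood were present in every library, those of skeletal muscle summed to at most 4.05 CPM with cis-3-hexenol and 3.48 CPM with octanal, and Trpc2 of the vomeronasal organ reached no more than 4.10 CPM with cis-3-hexenol and 6.09 CPM with octanal. Libraries held 19003749 to 21429007 counts with cis-3-hexenol and 21865132 to 23905413 with octanal. Replicates differed by more than sampling noise in each group, with a chi-square per gene of 5.27 to 8.35 among cis-3-hexenol libraries and 8.05 to 10.8 among octanal libraries, against 16.7 to 112 among no-odor libraries.

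When the spread was estimated from all 12 OC libraries, edgeR's quasi-likelihood test called 0 of 19175 genes between cis-3-hexenol and octanal at a Benjamini-Hochberg adjusted p under 0.05 (0% called). The smallest adjusted p of that fit was 0.0769, and 2496 genes (13%) stood at an unadjusted p under 0.05, of which 1167 (6.09%) were higher and 1329 (6.93%) lower with cis-3-hexenol. When only the 6 libraries compared entered the fit, 803 of 18373 genes were called (4.37%), 319 higher (1.74%) and 484 lower (2.63%). DESeq2's Wald test on the 12 libraries called 232 of 11809 genes (1.96%), 85 higher (0.72%) and 147 lower (1.24%), and 230 of these were among the 803, which is 99.1% of the DESeq2 calls and 28.6% of the 6-library calls. With no low-count filter edgeR called 581 of 32796 genes (1.77%), and 412 of these (70.9%) were among the 803. That fit also called genes whose libraries overlapped or spread widely. Fos, which overlapped between the groups, had an adjusted p of 2.38e-10 in it. Of 25 gland genes, described below, it called 4 higher and 8 lower (0.784% and 0.988% of all genes). The common biological coefficient of variation was 12.31% over the 12 libraries and 8.862% over the 6.

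The differences between the 2 odorants were mostly small. Of the 803 genes called in the 6-library fit, 42 were more than 2-fold higher and 15 more than 2-fold lower with cis-3-hexenol. In 798 of them the 3 cis-3-hexenol libraries lay wholly on 1 side of the 3 octanal libraries, as they did in 4765 of the 19175 genes (24.9%), 2220 higher (11.6%) and 2545 lower (13.3%). Of all genes in the 12-library fit, 48 had an adjusted p under 0.1, 28 higher and 20 lower with cis-3-hexenol, and all 48 were without overlap and called in the 6-library fit. In what follows, "called" refers to an adjusted p under 0.05 in the fit that is named, and a log2 fold change is cis-3-hexenol over octanal in the 12-library fit unless another is named.

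**Figure D1:**
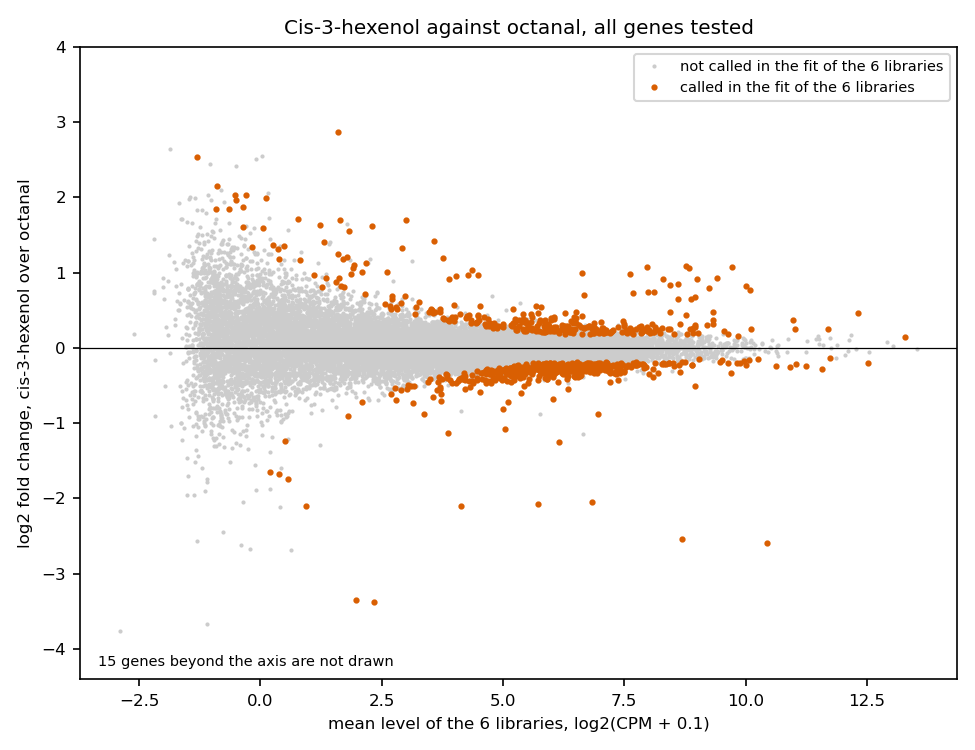
Each point is 1 of the 19175 genes tested, with its mean level over the 3 cis-3-hexenol and 3 octanal libraries on the x axis (log2 of CPM plus 0.1) and its log2 fold change, cis-3-hexenol over octanal, on the y axis; 15 genes beyond the y axis are not drawn. The 802 orange points are genes called in the 6-library fit that lie within the axes; of all 803 called, 319 were above 0 and 484 below.

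**Figure D2:**
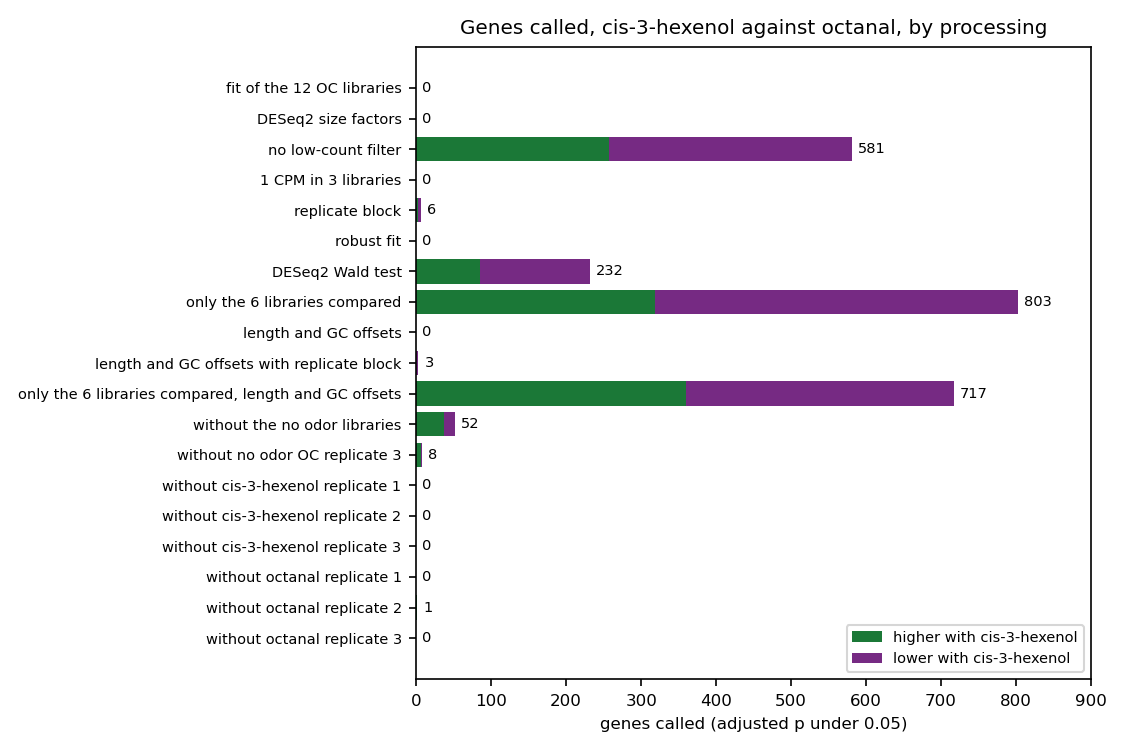
Bars give the number of genes called at an adjusted p under 0.05 between cis-3-hexenol and octanal under each processing, split into genes higher (green) and lower (purple) with cis-3-hexenol. The 12-library fit called 0, the 6-library fit 803, edgeR with no low-count filter 581 and DESeq2 232.

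Transcripts encoded in mitochondrial DNA were higher with cis-3-hexenol in nearly every member measured. They took 0.797%, 0.811% and 0.729% of all counts with cis-3-hexenol, against 0.387%, 0.403% and 0.461% with octanal. The groups did not overlap, with means of 0.779% ± 0.0443 and 0.417% ± 0.0392 (SD, n = 3 each), and the two-sided exact permutation test gave p = 0.1, the smallest that 3 against 3 libraries allow. Of 15 such transcripts tested, all had a log2 fold change above 0, with a median of 0.92 against 0.00 over all genes tested. In the 12-library fit 0 were called and 14 stood at an unadjusted p under 0.05 (6.09% of all genes were higher at that level), and 14 did so without any 1 of the 6 libraries. The 6-library fit called 14 higher (1.74% of all genes were) and DESeq2 12 (0.72% of all genes).

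The transcripts spanned all the complexes that mitochondrial DNA contributes to. Mt-Co3, a subunit of cytochrome c oxidase, stood at 653, 686 and 523 CPM with cis-3-hexenol and at 278, 237 and 374 CPM with octanal, a log2 fold change of 1.07, adjusted p = 0.0769, SE 0.17. Mt-Nd6, a subunit of NADH dehydrogenase and the one protein-coding gene on the light strand, stood at 125, 137 and 131 CPM with cis-3-hexenol and at 60.2, 67.2 and 69.3 CPM with octanal, a log2 fold change of 1.00, adjusted p = 0.0769, SE 0.16. Every cis-3-hexenol library exceeded every octanal library for both genes, and the 6-library adjusted p was 0.00136 for mt-Co3 and 2.19e-06 for mt-Nd6. The NADH dehydrogenase subunits mt-Nd1, mt-Nd2 and mt-Nd4 had log2 fold changes of 0.92, 0.99 and 0.94, the ATP synthase subunit mt-Atp6 1.07, and the large ribosomal RNA mt-Rnr2 0.92. The exception was mt-Nd4l, another NADH dehydrogenase subunit, with 6.59, 5.69 and 0 CPM with cis-3-hexenol and 2.33, 2.46 and 5.17 CPM with octanal, where the groups overlapped (log2 fold change 0.28, adjusted p = 0.912, SE 0.76).

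Against no odor, the cis-3-hexenol and octanal groups differed in these transcripts. The median log2 fold change of the 15 was -0.07 for cis-3-hexenol over no odor, with 0 called in the 12-library fit (12.2% of all genes were called in that comparison). It was -1.02 for octanal over no odor, with 13 called lower (29.4% of all genes were called, 15% lower). Both comparisons share the 3 no-odor libraries. The share of counts varied within the other groups, with 0.772%, 0.834% and 0.470% in the OC mixture and 0.872%, 0.915% and 0.595% with no odor, so that 1 library of each stood near or between the single odorants' values. The levels of marrow markers, given below, differed in the same direction, and their part in the mitochondrial difference was not tested. Whether the RNA came from a cleared supernatant or a whole homogenate, which differ in the organelles they hold, is not clear from the labels, and the part of this step was not tested.

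**Figure D3:**
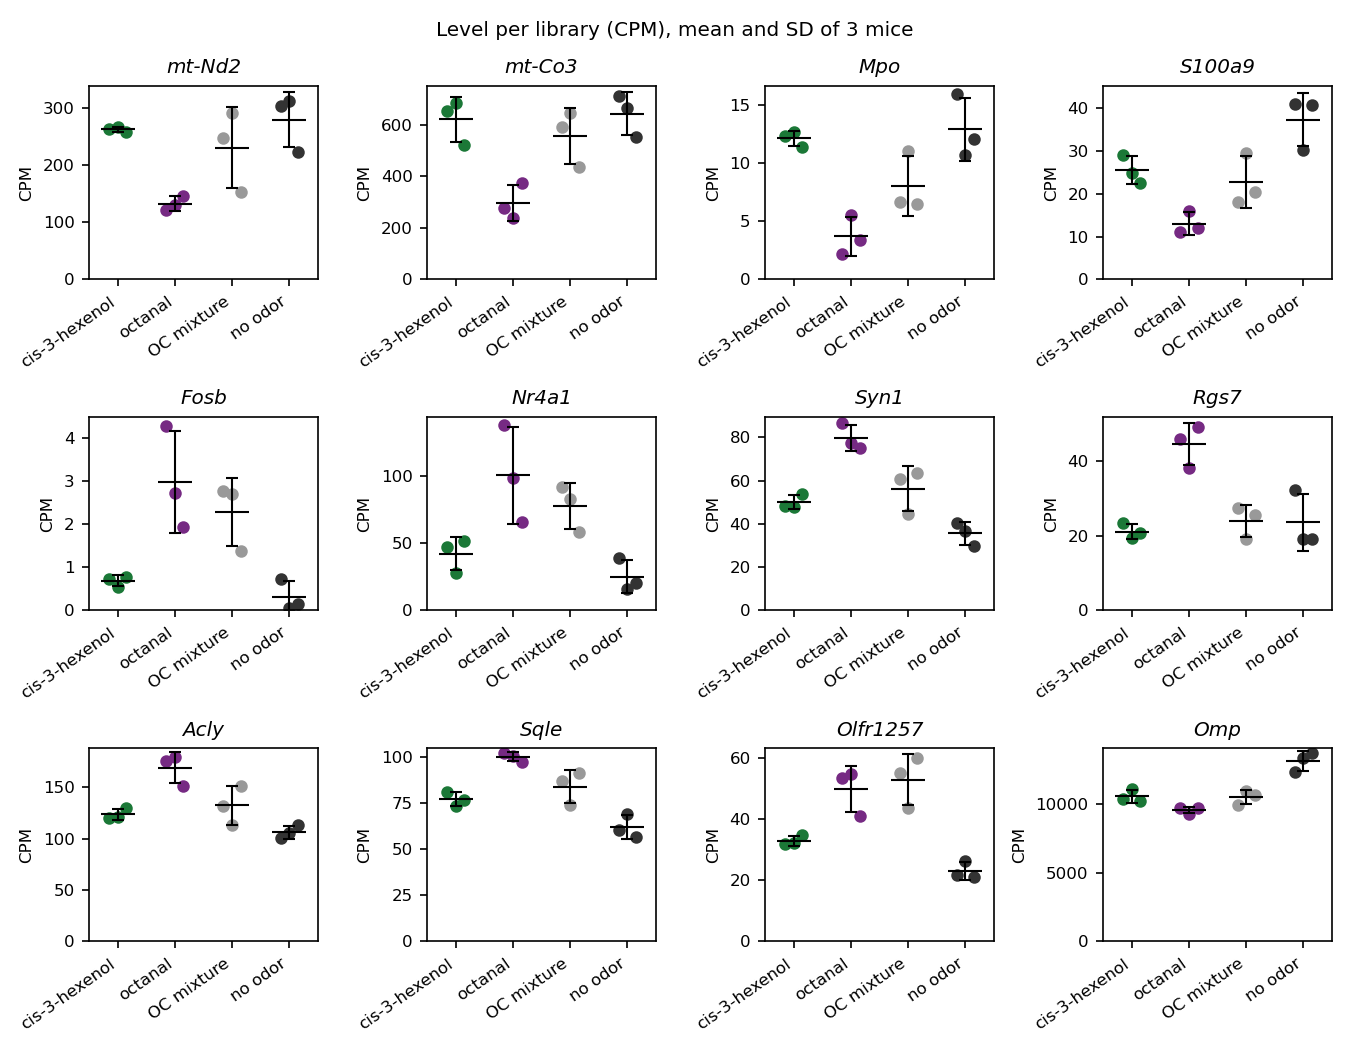
Each panel shows 1 gene, with the level in CPM on the y axis from 0, 1 point per library, and the mean and SD of the 3 libraries of a group as a bar with whiskers; groups run from cis-3-hexenol through octanal and the OC mixture to no odor. In all 12 panels the 3 cis-3-hexenol points lie wholly above or wholly below the 3 octanal points.

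Genes in the nucleus for the same respiratory complexes had far smaller differences. Of 80 nuclear respiratory chain subunits tested, 75 had a log2 fold change above 0, with a median of 0.19 against 0.00 over all genes. Over the 12 libraries 0 were called and 41 were higher and 0 lower at an unadjusted p under 0.05, beside 6.09% and 6.93% of all genes. The 41 were 13 without octanal replicate 1 and 15 without octanal replicate 2. They were 18 and 19 without cis-3-hexenol replicates 1 and 2, and 51 and 53 without replicate 3 of cis-3-hexenol and of octanal. The 6-library fit called 15 higher (1.74% of all genes were). Ndufc2, a subunit of NADH dehydrogenase, stood at 101, 97.3 and 94.01 CPM with cis-3-hexenol and 75.98, 70.8 and 84.8 CPM with octanal, without overlap (log2 fold change 0.34, adjusted p = 0.172, SE 0.09; 6-library adjusted p = 0.0137). Uqcrh of cytochrome c reductase had a log2 fold change of 0.33 and Atp5mpl of ATP synthase one of 0.33. Of 84 cytosolic ribosomal protein genes, 82 were above 0 with a median of 0.14. At an unadjusted p under 0.05, 0 were lower (6.93% of all genes were) and 23 higher (6.09% of all genes were). That count was 4 to 7 without octanal replicate 1 or 2 or cis-3-hexenol replicate 1 or 2, 30 without octanal replicate 3 and 42 without cis-3-hexenol replicate 3. The 6-library fit called 3 of the ribosomal protein genes higher (1.74% of all genes were), Rpl35a (log2 fold change 0.38) and Rpl26 (log2 fold change 0.23) among these.

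These are short messages, and the fold change ran with transcript length across all genes. The Spearman correlation of log2 fold change with transcript length was -0.19 across 18698 genes, which share the 6 libraries and are not independent replicates. The decile of genes with the shortest transcripts, with a median of 846 bases, had a median log2 fold change of 0.14, and the eighth decile, with a median of 4532.5 bases, one of -0.06. Genes called in the 6-library fit had a median length of 2072 bases when higher with cis-3-hexenol and 3828 bases when lower, against 3082 bases over all genes with a length. With an offset per library for length and GC content, the correlation was 0.0012, the median of the nuclear respiratory chain genes 0.07 with 14 of 80 higher at an unadjusted p under 0.05, and that of the ribosomal protein genes 0.04 with 10 of 84 higher. The bone list described below had a median of 0.13 under these offsets and the erythroid list one of 0.58. The mitochondrial transcripts kept a median of 0.82 and the marrow list one of 1.12 under these offsets.

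**Figure D4:**
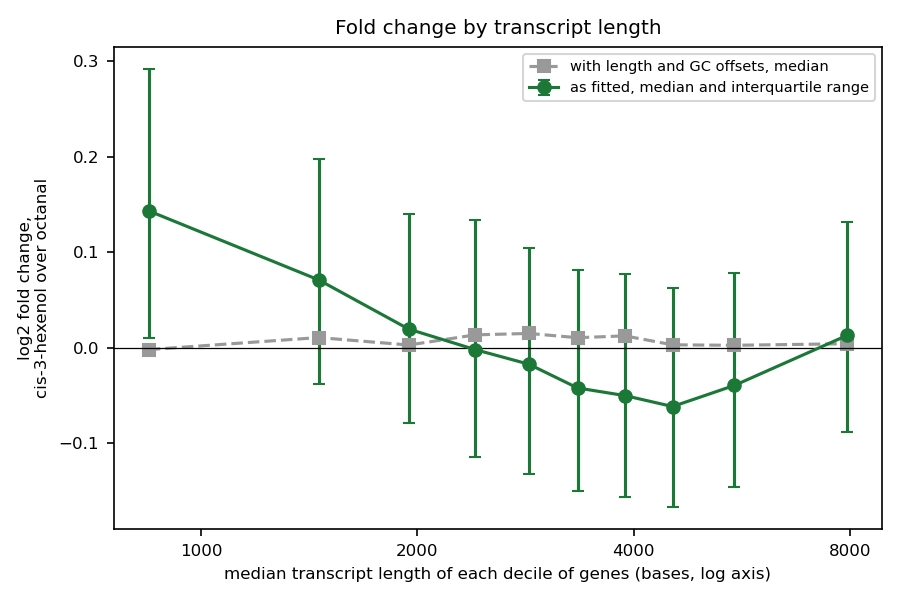
The x axis is the median transcript length (bases, log axis) of each decile of the genes and the y axis the log2 fold change, cis-3-hexenol over octanal; green points and whiskers are the median and interquartile range as fitted, and grey squares the median with length and GC offsets. The green medians run from 0.14 in the shortest decile to -0.06 in the eighth, while the grey medians stay between -0.0022 and 0.0147.

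Markers of neutrophils and their marrow precursors stood well above octanal levels in the cis-3-hexenol libraries. Of 16 tested, 15 had a log2 fold change above 0, the median was 1.25, and 14 were higher without overlap (11.6% of all genes were). None was called over the 12 libraries, where 13 were higher at an unadjusted p under 0.05 (6.09% of all genes were). That count was 12 to 14 when any 1 of the 6 libraries was left out, and the 6-library fit called 11 (1.74% of all genes were called higher). In bulk tissue, fewer cells of a type and less RNA per cell cannot be told apart. The summed level of the list was 233 to 331 CPM with cis-3-hexenol, 181 to 291 CPM with octanal and 332 to 490 CPM with no odor. The sums overlap between the 2 odorants. Ltf, a lactoferrin gene that glands also use, had the largest level of the list and overlapped too, at 181, 115 and 115 CPM with cis-3-hexenol and 120.4, 124 and 222 CPM with octanal.

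Mpo, which encodes the myeloperoxidase of neutrophil granules, had the smallest p of the genes named here. It stood at 12.3, 12.7 and 11.4 CPM with cis-3-hexenol and at 2.197, 5.52 and 3.36 CPM with octanal, a log2 fold change of 1.71, adjusted p = 0.0769, SE 0.27 and a 6-library adjusted p of 0.00213. The lowest cis-3-hexenol library was above the highest octanal library, and the OC mixture, at 6.63, 10.99 and 6.499 CPM, lay between the 2 groups of single odorants in 3 of 3 libraries. S100a9, a subunit of calprotectin, stood at 29.1, 24.9 and 22.5 CPM with cis-3-hexenol and 10.98, 16.1 and 11.97 CPM with octanal (log2 fold change 0.97, adjusted p = 0.0899, SE 0.18), again without overlap. Its partner S100a8 had a log2 fold change of 0.96, the elastase gene Elane 1.55, and the granule genes Camp and Ngp 1.70 and 1.42, and each was called in the 6-library fit. Against no odor, the median of the 16 was -0.47 for cis-3-hexenol with 0 called and -1.81 for octanal with 15 called lower (15% of all genes were).

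Other cells of blood, bone and connective tissue were on the same side by less. All 9 erythroid genes tested had a log2 fold change above 0, with a median of 0.70, 7 at an unadjusted p under 0.05 (6.09% of all genes were higher at that level) and 6 called in the 6-library fit (1.74% of all genes were). Of the 9, 2 stood at that level without cis-3-hexenol replicate 3, without octanal replicate 1, in a robust fit and with length and GC offsets, and the 6-library fit with those offsets called 2. Hbb-bs, a beta globin gene, stood at 592, 489 and 757 CPM with cis-3-hexenol and 289, 434 and 422 CPM with octanal, without overlap (log2 fold change 0.68, adjusted p = 0.31, SE 0.28), and near-identical globin copies could share its reads. Of 15 bone genes 12 were above 0 (median 0.28) and the 6-library fit called 6 higher (1.74% of all genes were), or 4 with length and GC offsets. The bone median was 0.11 without octanal replicate 1, 0.18 without cis-3-hexenol replicate 1 and 0.13 with the offsets in the 12-library fit. Spp1, the matrix protein osteopontin, stood at 612, 548 and 566 CPM with cis-3-hexenol and 313, 323 and 462 CPM with octanal, without overlap (log2 fold change 0.65, adjusted p = 0.121, SE 0.15). The osteoclast genes Ctsk and Acp5 had log2 fold changes of 0.47 and 0.52, the bone matrix genes Ibsp and Bglap 0.47 and 0.48.

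Of 40 collagens 30 were above 0, with a median of 0.18. At an unadjusted p under 0.05, 9 were higher and 0 lower (6.09% and 6.93% of all genes were). The 9 were 5 without cis-3-hexenol replicate 1 or octanal replicate 1. Col1a2, a chain of type I collagen, stood at 833, 684 and 717 CPM with cis-3-hexenol, 485, 570.0 and 556 CPM with octanal and 1512, 977 and 1222 CPM with no odor. Its cis-3-hexenol libraries lay above the octanal libraries and below the no-odor libraries (log2 fold change over octanal 0.47, adjusted p = 0.171, SE 0.13). The 12 lymphocyte genes tested had a median of 0.40 with 2 at an unadjusted p under 0.05, 12 macrophage genes one of 0.23 with 5, 11 cartilage genes one of 0.47 with 5, and 10 endothelial genes one of 0.09 with 1. These counts are of genes higher with cis-3-hexenol, beside 6.09% of all genes at that level. These smaller lists depended on single libraries. No macrophage gene stood at that level without octanal replicate 2, and 1 to 3 did without cis-3-hexenol replicate 1 or 2 or octanal replicate 1. The lymphocyte median was 0.15 without cis-3-hexenol replicate 1, the cartilage median 0.23 without cis-3-hexenol replicate 2, and the endothelial median 0.0017 without cis-3-hexenol replicate 1 and 0.04 without octanal replicate 2. The cartilage count was 3 without cis-3-hexenol replicate 1 or 3 or octanal replicate 3, and the lymphocyte count ran from 1 to 5 as single libraries were left out, 5 without cis-3-hexenol replicate 3. Among 14 genes of ensheathing and Schwann cells, the glia that wrap olfactory axons, 10 were above 0 (median 0.17). Fabp7, a fatty acid binding protein of these glia, stood at 139.9, 148 and 148 CPM with cis-3-hexenol and 127, 104 and 111 CPM with octanal, without overlap (log2 fold change 0.35, adjusted p = 0.121, SE 0.08). The 6-library fit called 3 of the 14 higher (1.74% of all genes were), or 1 with length and GC offsets.

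Some genes of platelets, eosinophils and fat cells were on the high side too, though they sit in none of the lists and were chosen after their values were seen. Pf4, the platelet chemokine, stood at 5.96, 6.97 and 5.35 CPM with cis-3-hexenol, 1.93, 3.27 and 3.11 CPM with octanal and 10.7, 7.86 and 7.11 CPM with no odor. Its cis-3-hexenol libraries lay above the octanal libraries and below the no-odor libraries (log2 fold change 1.13, adjusted p = 0.0899, SE 0.22). The eosinophil granule gene Prg2 (log2 fold change 1.64), the platelet gene Ppbp (log2 fold change 1.33) and the adipocyte genes Fabp4 (log2 fold change 1.21) and Cfd (log2 fold change 1.71) had no overlap between the 2 odorants, and the 6-library fit called all 5.

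A few genes of secretory glands had large differences together with a wide spread between libraries. Of 25 gland genes tested 11 were above and 14 below 0, with a median of -0.17. At an unadjusted p under 0.05, 1 was lower and 0 higher (6.93% and 6.09% of all genes were). The median was -1.80 without cis-3-hexenol replicate 1, and above 0 without cis-3-hexenol replicate 2 (0.17) or 3 (0.16) or octanal replicate 3 (0.19). Bpifb9b, a secreted relative of lipid-binding bactericidal proteins, stood at 536, 178 and 478 CPM with cis-3-hexenol, 549, 3951 and 2709.8 CPM with octanal, 27.2, 131 and 887 CPM with the OC mixture and 215, 50.1 and 5793 CPM with no odor. The highest cis-3-hexenol library nearly met the lowest octanal library, and the no-odor libraries spanned both groups (log2 fold change -2.60, adjusted p = 0.422, SE 1.33; 6-library adjusted p = 0.0188). Its close paralog Bpifb9a, which could share its reads, had a log2 fold change of -2.53, adjusted p = 0.424, SE 1.30 and Bpifb5, which overlapped, one of -2.10, adjusted p = 0.404, SE 1.03. These 3 were called lower in the 6-library fit, which called Bpifb6 and Bpifb4 higher by less. Odam, a secreted protein outside the list, stood at 0.784, 0.544 and 1.24 CPM with cis-3-hexenol and 2.33, 17.96 and 6.72 CPM with octanal, without overlap (log2 fold change -3.38, adjusted p = 0.247, SE 1.17; 6-library adjusted p = 0.0126). The summed level of the gland list did not separate the odorants, with 24735 to 29015 CPM with cis-3-hexenol, 24059 to 31111 CPM with octanal and 26079 to 81397 CPM with no odor.

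**Figure D5:**
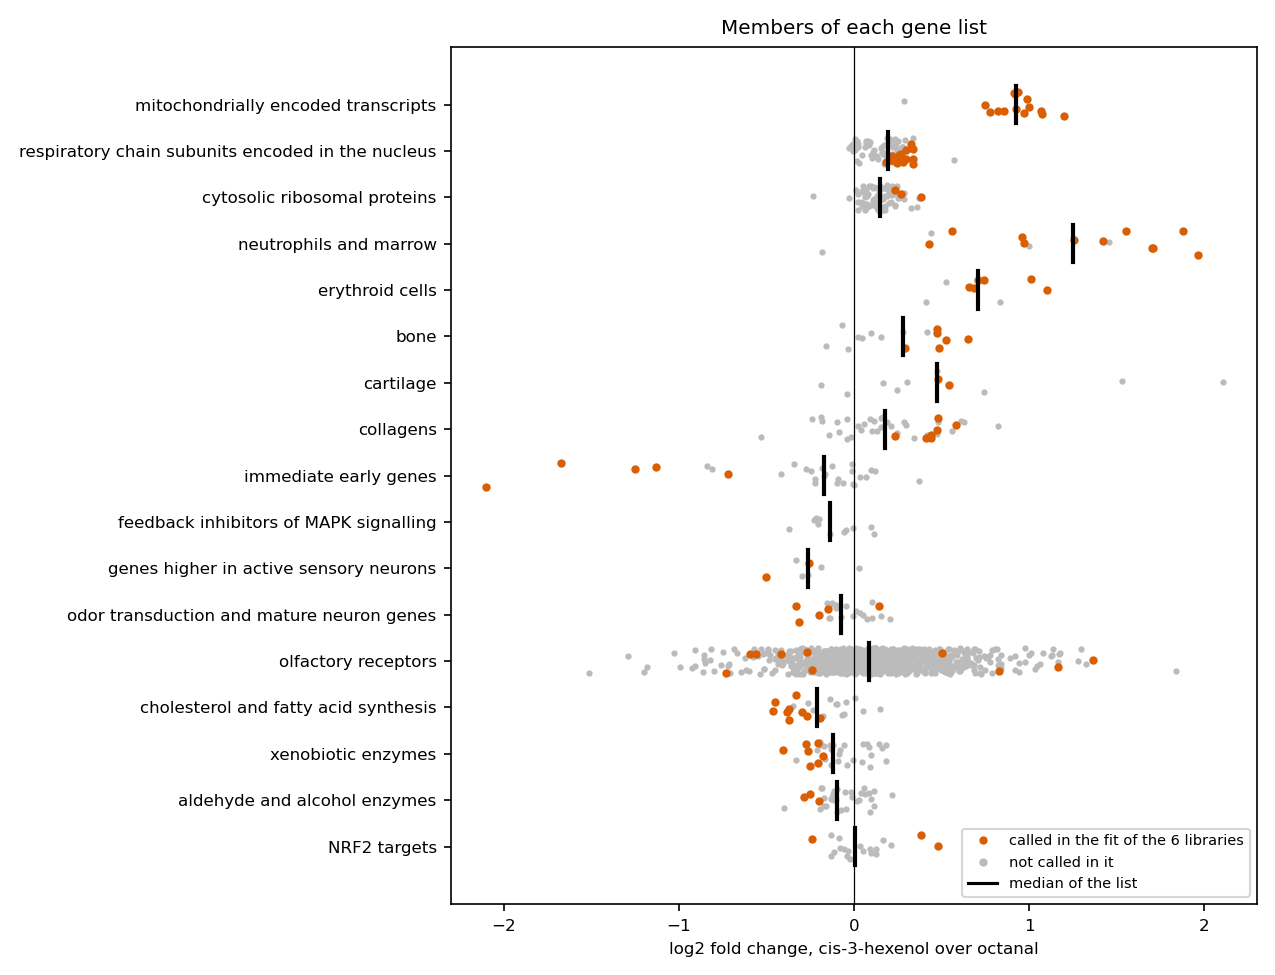
Each row is a gene list and each point a member tested, placed by its log2 fold change, cis-3-hexenol over octanal (x axis); orange points were called in the 6-library fit and black bars are list medians. Medians run from 1.25 for the marrow list and 0.92 for mitochondrial transcripts to -0.26 for genes higher in active sensory neurons.

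Immediate early genes, which neurons switch on within minutes of firing, were lower with cis-3-hexenol where they differed. Of 29 tested, 24 had a log2 fold change below 0, with a median of -0.17, and 9 were lower without overlap (13.3% of all genes were). In the 12-library fit 0 were called, 7 were lower and 0 higher at an unadjusted p under 0.05 (6.93% of all genes were lower), and 6 to 9 were lower when any 1 of the 6 libraries was left out. The 6-library fit called 5 lower (2.63% of all genes were), Fosb, Egr4, Nr4a1, Nr4a2 and Egr1. DESeq2 called Nr4a2 alone (1.24% of all genes were called lower). Its adjusted p was 0.0867 for Nr4a1 and 0.279 for Egr1, and it gave none for Fosb, which it could therefore not call.

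The promoters of 4 of these 5 are shown, without that of Egr1. Each of the 4 carries the core of the cAMP response element, the site through which CREB joins cAMP and calcium to transcription in neurons. Each line gives the 250 bases upstream of the RefSeq transcription start, 5′ to 3′ on the strand of the gene, in build GRCm38.p6, with every copy of the core in capitals (TGACG, or CGTCA where it lies on the other strand). The windows are chr15:101266596-101266845 on the plus strand for Nr4a1, and on the minus strand chr2:57124004-57124253 for Nr4a2, chr7:19310046-19310295 for Fosb and chr6:85513590-85513839 for Egr4.
Nr4a1: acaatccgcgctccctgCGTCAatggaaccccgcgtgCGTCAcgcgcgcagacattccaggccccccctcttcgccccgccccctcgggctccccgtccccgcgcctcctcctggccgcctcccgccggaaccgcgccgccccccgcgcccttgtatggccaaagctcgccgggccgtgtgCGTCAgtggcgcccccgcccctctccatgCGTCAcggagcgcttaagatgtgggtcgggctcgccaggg
Nr4a2: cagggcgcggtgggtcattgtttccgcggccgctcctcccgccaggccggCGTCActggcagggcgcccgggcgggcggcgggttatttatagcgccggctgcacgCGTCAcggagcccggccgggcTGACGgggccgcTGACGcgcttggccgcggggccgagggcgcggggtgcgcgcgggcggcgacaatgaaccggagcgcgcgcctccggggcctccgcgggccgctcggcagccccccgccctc
Fosb: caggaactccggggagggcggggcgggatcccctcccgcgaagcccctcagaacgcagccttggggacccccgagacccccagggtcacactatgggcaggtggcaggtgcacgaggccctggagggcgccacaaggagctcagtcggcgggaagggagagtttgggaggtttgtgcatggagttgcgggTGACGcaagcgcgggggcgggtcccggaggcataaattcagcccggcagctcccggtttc
Egr4: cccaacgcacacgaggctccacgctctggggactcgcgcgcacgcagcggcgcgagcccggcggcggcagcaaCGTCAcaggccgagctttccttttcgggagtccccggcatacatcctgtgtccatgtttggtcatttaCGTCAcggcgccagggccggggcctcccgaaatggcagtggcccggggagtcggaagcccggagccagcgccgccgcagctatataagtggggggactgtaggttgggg
The Nr4a1 and Nr4a2 windows hold 4 copies each, that of Egr4 2 and that of Fosb 1. Of 32851 promoter windows of the same length, 17.8% hold at least 1 copy and 0.137% hold 4 or more. Among the 24 immediate early genes with a window 17 hold a copy. Fos holds 2, as many as Egr4, and its level, given below, overlapped between the groups. Nr4a3 holds 4 too, and its level overlapped between the groups, with 6.43, 1.98 and 1.75 CPM with cis-3-hexenol and 2.91, 2.76 and 2.14 CPM with octanal. A match of letters is a description and does not show a bound site.

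Fosb, a partner in the AP-1 transcription factor, stood at 0.732, 0.544 and 0.783 CPM with cis-3-hexenol and at 4.26, 2.72 and 1.93 CPM with octanal. The highest cis-3-hexenol library was below the lowest octanal library, the log2 fold change was -2.10, adjusted p = 0.147, SE 0.50, and the 6-library adjusted p was 0.00738. Nr4a1, an orphan nuclear receptor induced by calcium and cAMP, stood at 46.7, 28.1 and 51.4 CPM with cis-3-hexenol, 137, 98.0 and 65.6 CPM with octanal, 91.7, 82.8 and 58.1 CPM with the OC mixture and 39.3, 16.2 and 20.04 CPM with no odor. The 3 cis-3-hexenol libraries were below all octanal and all OC mixture libraries and overlapped the no-odor libraries (log2 fold change over octanal -1.25, adjusted p = 0.159, SE 0.31; 6-library adjusted p = 0.0126). Its relative Nr4a2 stood at 12.97, 7.22 and 7.19 CPM with cis-3-hexenol and 26.0, 20.8 and 13.02 CPM with octanal (log2 fold change -1.13, adjusted p = 0.121, SE 0.25), where the highest cis-3-hexenol value and the lowest octanal value nearly met. The zinc-finger factor Egr4 was scarce, with 0.784, 0.346 and 0.599 CPM with cis-3-hexenol and 2.24, 1.78 and 1.51 CPM with octanal, without overlap (log2 fold change -1.67, adjusted p = 0.0899, SE 0.33).

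Egr1 stood at 21.3, 22.9 and 33.1 CPM with cis-3-hexenol and 39.2, 52.2 and 36.3 CPM with octanal, without overlap (log2 fold change -0.72, adjusted p = 0.266, SE 0.26). Fos overlapped, at 10.7, 5.88 and 20.6 CPM with cis-3-hexenol and 23.1, 23.4 and 20.6 CPM with octanal (log2 fold change -0.84, adjusted p = 0.425, SE 0.43), and 1 no-odor library reached 23.1 CPM. Arc, which encodes a synaptic capsid-like protein, had a log2 fold change of -0.42, adjusted p = 0.244, SE 0.14, and Npas4, a factor specific to neurons, one of -0.81, adjusted p = 0.511, SE 0.50. Neither was called in the 6-library fit. Of 11 feedback inhibitors of MAPK signalling 9 were below 0, with a median of -0.14, and 3 were lower at an unadjusted p under 0.05 (6.93% of all genes were). These were the phosphatase genes Dusp6 (log2 fold change -0.20), Dusp14 (log2 fold change -0.22) and Dusp5 (log2 fold change -0.21), none of them called in the 6-library fit. The 3 were 1 without cis-3-hexenol replicate 3 or octanal replicate 1, and 2 without cis-3-hexenol replicate 1.

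Genes whose level in a sensory neuron follows its longer activity were mostly on the low side. Of 7 tested 6 had a log2 fold change below 0, with a median of -0.26, none reached an unadjusted p under 0.05 in the 12-library fit, and the 6-library fit called 2 lower (2.63% of all genes were). With length and GC offsets, or without octanal replicate 2, 2 of the 7 were lower at that unadjusted p, and 3 without octanal replicate 3. Kirrel2, an adhesion molecule that sorts axons by activity, stood at 439.5, 362 and 429.9 CPM with cis-3-hexenol and 685, 501 and 559 CPM with octanal. The groups did not overlap, yet 1 no-odor library stood at 638 CPM beside 2 at 256 and 275 CPM, and the log2 fold change was -0.50, adjusted p = 0.405, SE 0.25 (6-library adjusted p = 0.0156). Pcp4l1, a calmodulin-binding peptide, stood at 1864, 1648 and 1799.9 CPM with cis-3-hexenol and 2188, 1872 and 2289 CPM with octanal (log2 fold change -0.26, adjusted p = 0.393, SE 0.12), with a 6-library adjusted p of 0.0378 and groups that nearly met. Lrrc3b (log2 fold change -0.30, adjusted p = 0.39, SE 0.14) and the semaphorin gene Sema7a (log2 fold change -0.26, adjusted p = 0.489, SE 0.15) overlapped, and so did the calcium-binding S100a5, with 1034, 1012 and 931 CPM with cis-3-hexenol and 955, 962 and 1004 CPM with octanal (log2 fold change 0.03, 95% interval -0.20 to 0.25). Against no odor, the median of the 7 was 0.86 for cis-3-hexenol and 1.12 for octanal, with 5 called higher in each of these comparisons (5.56% of all genes for cis-3-hexenol and 14.4% for octanal).

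The transduction machinery differed by small amounts in both directions. Of 23 genes of odor transduction and the mature neuron 9 were above 0 and 14 below, the median was -0.07, and the 6-library fit called 1 higher and 4 lower (1.74% and 2.63% of all genes were), or 4 of each with length and GC offsets. Without overlap, 3 were higher and 9 lower (11.6% and 13.3% of all genes). Pde1c, the phosphodiesterase that degrades cAMP in olfactory cilia, stood at 354, 346 and 376 CPM with cis-3-hexenol and 450.3, 444 and 444 CPM with octanal, without overlap (log2 fold change -0.32, adjusted p = 0.164, SE 0.08; 6-library adjusted p = 0.00382). Ano2, the calcium-activated chloride channel that amplifies the response, stood at 269, 249 and 258 CPM with cis-3-hexenol and 334, 307 and 336 CPM with octanal, also without overlap (log2 fold change -0.33, adjusted p = 0.21, SE 0.10; 6-library adjusted p = 0.0061). Adcy3 had a log2 fold change of -0.20, adjusted p = 0.401, SE 0.10 and was called in the 6-library fit (adjusted p = 0.0126). For Gnal and Cnga2 neither fit made a call, and the intervals of the log2 fold change were -0.28 to 0.08 and -0.13 to 0.23. Omp, whose values are given above, was higher with cis-3-hexenol by 0.14, adjusted p = 0.275, SE 0.05 and called in the 6-library fit (adjusted p = 0.0178), while Gap43 of immature neurons was not, at 0.12, adjusted p = 0.6, SE 0.09.

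Olfactory receptors as a class had the same share of counts within their spread, with 0.471%, 0.488% and 0.520% with cis-3-hexenol and 0.491%, 0.490% and 0.521% with octanal. The means were 0.493% ± 0.0251 and 0.501% ± 0.0173 (SD, n = 3 each), and the two-sided exact permutation test gave p = 0.5, with a smallest possible p of 0.1. The difference changed sign without cis-3-hexenol replicate 1 or octanal replicate 3. Of 924 receptors tested 553 had a log2 fold change above 0, with a median of 0.08 against 0.00 over all genes. In the 12-library fit 0 were called, and 42 were higher and 39 lower at an unadjusted p under 0.05, beside 6.09% and 6.93% of all genes. DESeq2 called 3 lower (1.24% of the 11809 genes to which it gave an adjusted p). It gave none to some receptors, Olfr1444, Olfr117, Olfr1358, Olfr828 and Olfr525 among them, so these could not be called by it. The 42 ran from 17 without octanal replicate 2 to 56 without octanal replicate 3, with 20, 23 and 28 without cis-3-hexenol replicate 3, octanal replicate 1 and cis-3-hexenol replicate 2, and the 39 from 24 without cis-3-hexenol replicate 1 to 43 without cis-3-hexenol replicate 3. The 6-library fit called 4 higher and 6 lower of 900 receptors tested there, a smaller share than over all genes (1.74% higher and 2.63% lower), so the receptors named next are described singly. Receptor genes have close paralogs, so reads of similar members could be shared between them. Against no odor, the median of the 924 was 0.42 for cis-3-hexenol, with 87 called higher and 0 lower (5.56% and 6.65% of all genes). It was 0.34 for octanal, with 157 called higher and 4 lower (14.4% and 15% of all genes). The share of counts from receptors was 0.379%, 0.418% and 0.317% with no odor. A single receptor above no odor is thus read beside these medians.

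Among receptors that were lower with cis-3-hexenol, Olfr1257 had the smallest p. It stood at 31.8, 32.1 and 34.7 CPM with cis-3-hexenol, 53.4, 54.6 and 41.05 CPM with octanal, 55.1, 43.7 and 59.8 CPM with the OC mixture and 21.8, 26.4 and 20.99 CPM with no odor. The cis-3-hexenol libraries lay below all octanal and OC mixture libraries and above all no-odor libraries, with a log2 fold change over octanal of -0.59, adjusted p = 0.102, SE 0.13 and adjusted p = 0.00719 in the 6-library fit and 0.00268 in DESeq2. Olfr1382 stood at 14.96, 15.1 and 13.3 CPM with cis-3-hexenol and 19.8, 20.5 and 17.5 CPM with octanal (log2 fold change -0.42, adjusted p = 0.121, SE 0.09), and Olfr1193 at 9.78, 8.55 and 11.7 CPM with cis-3-hexenol and 13.4, 17.03 and 13.8 CPM with octanal (log2 fold change -0.56, adjusted p = 0.169, SE 0.15). Both were without overlap and were called in the 6-library fit and by DESeq2. The other receptors called lower in the 6-library fit were Olfr389 (log2 fold change -0.73), Olfr1463 (log2 fold change -0.27) and Olfr727 (log2 fold change -0.24). Olfr1348 (log2 fold change -0.21) and Olfr525 (log2 fold change -0.51), next by p in the 12-library fit, were not called in either.

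The 4 receptors called higher with cis-3-hexenol in the 6-library fit were Olfr569 (log2 fold change 1.36), Olfr19 (log2 fold change 1.17), Olfr247 (log2 fold change 0.83) and Olfr1511 (log2 fold change 0.50). Olfr19 stood at 1.99, 2.42 and 2.44 CPM with cis-3-hexenol, 0.762, 1.02 and 1.26 CPM with octanal and 0.326, 1.01 and 0.284 CPM with no odor, without overlap between the 2 odorants. Olfr569 stood at 1.26, 1.48 and 2.03 CPM with cis-3-hexenol and 0.448, 0.764 and 0.6302 CPM with octanal, also without overlap. By p in the 12-library fit the first 5 higher receptors were Olfr1444 (log2 fold change 1.17), Olfr1364 (log2 fold change 0.37), Olfr117 (log2 fold change 0.71), Olfr1358 (log2 fold change 0.94) and Olfr828 (log2 fold change 1.30), and the 6-library fit called none of these 5. Olfr828, Olfr1444 and Olfr1358 were scarce, with mean counts over the 6 libraries of 8.5, 19.5 and 28.3, and Olfr1364 overlapped between the groups. The 8 trace amine-associated receptors tested, a separate small family of amine receptors, had a median of 0.15 and none at an unadjusted p under 0.05.

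Genes of cholesterol and fatty acid synthesis were lower with cis-3-hexenol. Of 22 tested 19 had a log2 fold change below 0, with a median of -0.21, and 13 were lower and 0 higher at an unadjusted p under 0.05 in the 12-library fit (6.93% of all genes were lower), which called 0. Between 10 and 12 were lower at that level when any 1 of the 6 libraries was left out, the 6-library fit called 9 lower (2.63% of all genes) and DESeq2 5 (1.24%). Sqle, the squalene epoxidase that commits sterol synthesis, stood at 81.1, 73.6 and 76.7 CPM with cis-3-hexenol and at 102, 100.2 and 97.3 CPM with octanal. The groups were well apart, with a log2 fold change of -0.37, adjusted p = 0.121, SE 0.08 and a 6-library adjusted p of 0.00336. Acly, which makes cytosolic acetyl-CoA, stood at 120.2, 122 and 129.8 CPM with cis-3-hexenol and 176, 179.9 and 152 CPM with octanal (log2 fold change -0.45, adjusted p = 0.095, SE 0.09), and Idi1, an isomerase of the isoprenoid pathway, at 57.4, 59.1 and 53.96 CPM with cis-3-hexenol and 78.9, 71.2 and 72.5 CPM with octanal (log2 fold change -0.39, adjusted p = 0.092, SE 0.08).

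The synthase gene Hmgcs1 had a log2 fold change of -0.33, the fatty acid synthase gene Fasn -0.37 and the regulator Srebf1 -0.30, and each was called in the 6-library fit. With length and GC offsets the median of the 22 was -0.16 and 10 were lower at an unadjusted p under 0.05. Against no odor, the median was -0.06 for cis-3-hexenol, with 2 called higher and 5 lower (5.56% and 6.65% of all genes), and 0.27 for octanal, with 11 called higher and 4 lower (14.4% and 15% of all genes).

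Enzymes that metabolise odorants and other foreign compounds were slightly lower with cis-3-hexenol. Of 33 xenobiotic enzymes tested 23 had a log2 fold change below 0, with a median of -0.12, and 15 were lower without overlap (13.3% of all genes were). Over the 12 libraries 8 were lower at an unadjusted p under 0.05 (6.93% of all genes were). The 8 were 3 without cis-3-hexenol replicate 2, 5 without octanal replicate 3 and 6 or 7 without any other 1 of the 6 libraries. The 6-library fit called 7 lower (2.63% of all genes). Cyp2f2, an abundant cytochrome of sustentacular cells, stood at 2771, 2624 and 2904 CPM with cis-3-hexenol and 3225, 3310.0 and 3524 CPM with octanal, without overlap (log2 fold change -0.28, adjusted p = 0.288, SE 0.11; 6-library adjusted p = 0.00428). Fmo2, a flavin monooxygenase, stood at 122, 118 and 118 CPM with cis-3-hexenol and 147, 141 and 143 CPM with octanal (log2 fold change -0.27, adjusted p = 0.161, SE 0.07; 6-library adjusted p = 0.0114). The olfactory cytochrome Cyp2g1 had a log2 fold change of -0.21, Cyp2e1, which oxidises alcohols, -0.33 and Cyp4b1 -0.19.

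The enzymes nearest in chemistry to the 2 odorants differed by small amounts. Of 34 aldehyde and alcohol enzymes tested 23 were below 0, with a median of -0.10, and 4 were lower at an unadjusted p under 0.05 (6.93% of all genes were). The 6-library fit called 3 lower (2.63% of all genes). Without cis-3-hexenol replicate 2 the 4 were 2, and without cis-3-hexenol replicate 3 they were 6. Aldh3a2, which oxidises fatty aldehydes, stood at 102, 101 and 107 CPM with cis-3-hexenol and 120.1, 119 and 117 CPM with octanal, without overlap (log2 fold change -0.20, adjusted p = 0.26, SE 0.07; 6-library adjusted p = 0.0378). Its relative Aldh3a1 stood at 66.4, 63.3 and 70.1 CPM with cis-3-hexenol and 77.9, 82.6 and 77.2 CPM with octanal (log2 fold change -0.25, adjusted p = 0.229, SE 0.08), and Aldh18a1, which works in proline synthesis, had a log2 fold change of -0.28. Targets of NRF2, the regulator that answers reactive aldehydes and oxidants, were evenly divided, with 10 of 20 above and 10 below 0 and a median of 0.00. Hmox1, heme oxygenase, was on the high side at 52.1, 44.6 and 47.5 CPM with cis-3-hexenol and 33.3, 37.4 and 40.1 CPM with octanal (log2 fold change 0.38, adjusted p = 0.147, SE 0.09), and G6pdx, which supplies NADPH, on the low side at 147, 149 and 157 CPM with cis-3-hexenol and 172, 184 and 179.6 CPM with octanal (log2 fold change -0.24, adjusted p = 0.236, SE 0.08).

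The chaperones lay on both sides of 0, with calls on the low side in the 6-library fit. Of 16 heat shock genes 7 were above and 9 below 0, with a median of -0.04, and the 6-library fit called 4 lower and 0 higher (2.63% and 1.74% of all genes were), or 2 lower with length and GC offsets. With no low-count filter edgeR called 2 lower and 2 higher (0.988% and 0.784% of all genes). Hspa4l, a nucleotide exchange factor for heat shock chaperones, stood at 108, 101 and 105 CPM with cis-3-hexenol and 137, 127 and 127 CPM with octanal, without overlap (log2 fold change -0.32, adjusted p = 0.0899, SE 0.06; 6-library adjusted p = 0.00883). Hsp90ab1 had a log2 fold change of -0.24 and was also called in the 6-library fit, and Hsph1 (log2 fold change -0.31) was not.

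Several genes with the smallest p values belong to none of the gene lists. Rgs7, a regulator that speeds G protein shutdown in neurons, stood at 23.4, 19.3 and 20.6 CPM with cis-3-hexenol, 45.9, 38.2 and 49.2 CPM with octanal, 27.3, 19.1 and 25.5 CPM with the OC mixture and 32.3, 19.1 and 19.2 CPM with no odor. The octanal libraries were above every library of the other 3 groups (log2 fold change over octanal -1.07, adjusted p = 0.0899, SE 0.18; 6-library adjusted p = 6.69e-05). Syn1, the synaptic vesicle protein synapsin I, stood at 48.4, 47.8 and 53.6 CPM with cis-3-hexenol and 86.6, 77.4 and 74.99 CPM with octanal (log2 fold change -0.67, adjusted p = 0.0899, SE 0.12), and Dlg2, a synaptic scaffold, at 93.2, 77.3 and 94.4 CPM with cis-3-hexenol and 196, 141 and 148 CPM with octanal (log2 fold change -0.87, adjusted p = 0.0899, SE 0.18). Neither pair of groups overlapped.

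Of the same set, the carbonic anhydrase gene Car12 had a log2 fold change of -0.65, Exoc6b of the exocyst -0.54, Cyfip1, a regulator of actin and translation, -0.50, the pyruvate carboxylase gene Pcx -0.45 and Sufu, an inhibitor of Hedgehog signalling, -0.43. On the high side stood Nnat, an imprinted gene for a small membrane protein, with 25.99, 22.99 and 32.8 CPM with cis-3-hexenol and 16.2, 14.1 and 9.87 CPM with octanal (log2 fold change 1.03, adjusted p = 0.0899, SE 0.18), and Nxnl2, a thioredoxin-like gene of sensory neurons, with 71.2, 76.3 and 77.3 CPM with cis-3-hexenol and 52.99, 57.5 and 61.7 CPM with octanal (log2 fold change 0.39, adjusted p = 0.0899, SE 0.07). All 7 genes were without overlap and called in the 6-library fit, and none was called in the 12-library fit.

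Measured from no odor, cis-3-hexenol and octanal were at unequal distances. In the 12-library fit 2341 genes (12.2%) were called between cis-3-hexenol and no odor, 1066 higher (5.56%) and 1275 lower (6.65%), and 5640 (29.4%) between octanal and no odor, 2770 higher (14.4%) and 2870 lower (15%). Without cis-3-hexenol replicate 3 the first count was 533, and without no odor replicate 2 it was 3150. Without no odor replicate 3, the library that stood apart, the counts were 1498 for cis-3-hexenol and 4945 for octanal. These comparisons share the no-odor libraries, and the difference between the 2 counts was not tested. Genes named above for their difference between the 2 odorants lay on either side of this. Syn1 had a log2 fold change of 0.49 for cis-3-hexenol over no odor and 1.16 for octanal over no odor, and Mpo had -0.09 and -1.80 in the same order, while octanal was the nearer to no odor for Olfr1444, at 1.02 and -0.15, and for Npas4, at -1.56 and -0.75. Both Olfr1444 and Npas4 were scarce, with mean counts over the 6 libraries of 19.5 and 8.5. Olfr1444 was not called against no odor for either odorant (12-library adjusted p = 0.068 for cis-3-hexenol and 0.80 for octanal).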

How the data were processed

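The deposited table holds expected counts per Ensembl gene for the 12 OC libraries, not scaled between libraries. The submitters' processing notes name STAR 2.7.10b, Salmon 1.10.1, R 4.4.2 and build GRCm39, without roles, and the annotation release is not given in the sources used here. Rounding to whole numbers touched 12.57% of the values, with a largest step of 0.5. GENCODE M21 supplied symbols, lengths and GC content by Ensembl ID (52081 of 57010 IDs named; IDs without a name held 0.3104% of counts), so gene coordinates are not given. Promoter sequences are RefSeq's, in build GRCm38.p6.

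Genes were tested in 1 fit of the 12 OC libraries in 4 groups with edgeR 4.0.16 (R 4.3.3): filterByExpr, TMM, quasi-likelihood F-test, two-sided, no replicate block, with Benjamini-Hochberg adjustment over 19175 genes. The SE was taken as the absolute log2 fold change over the root of F, and 95% intervals use it. The pair is the only pair of compounds compared. On simulated counts for this comparison, over 18957 genes, the pipeline found 85% of 2-fold and 99% of 4-fold changes, with 9 false calls of 193. These rates hold for the planted changes, in 100 genes at each fold, and smaller changes were not planted. Changes were planted only in genes above 1 CPM. Each simulated gene had the same spread in all 4 groups, while the real groups differed in spread, as given above. The rates are therefore not the power of the real comparison. They do not show that the real libraries lack 2-fold changes. Of the genes called in the 6-library fit, 42 were more than 2-fold higher and 15 more than 2-fold lower with cis-3-hexenol. The 12-library fit did not call them.

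The named genes are the 5 receptors with the smallest p in each direction, a set list of activity and neuron genes, and the 10 genes next by p in each direction. Predicted and clone names were passed over for this last set, and no filter on overlap or mean count was applied to it. None of the last set was called in the 12-library fit and all were called in the 6-library fit. Up to 4 members of each list at an unadjusted p under 0.05, and 29 more, were chosen after their values were seen. The comparison and the gene lists were chosen with earlier results of these data known. Lists are described by counts and medians, without a set test. Alternatives were a fit of the 6 libraries, DESeq2 1.42.0 (test and size factors), other filters, a robust fit, a replicate block, loess offsets for length and GC content, and leaving out each library; the offsets in the 6-library fit, and fits without no-odor libraries, were chosen after seeing the data. The AD batch of 12 libraries was not used, and some genes are not reported here.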

Additional observations from a re-analysis of the deposited data

How the results depend on the processing

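For cis-3-hexenol against octanal, the count of 0 called genes was 581 with no low-count filter, 232 with DESeq2's Wald test, 803 with only the 6 libraries compared, 717 with those and length and GC offsets, 52 without the no-odor libraries and 8 without no odor replicate 3. It was 0 with DESeq2 size factors, a 1 CPM filter, a robust fit or the offsets alone, and 0 to 1 when 1 of the 6 libraries was left out (1 without octanal replicate 2). No tie between same-numbered mice is stated, and the correlations of their deviations were -0.25, -0.07 and -0.20; a block for the replicate number gave 6 calls, and 3 with the offsets. Receptors called numbered 13 with no filter, 3 with DESeq2, 10 in the 6-library fit and 10 with its offsets, and 0 under the others. Genes at an unadjusted p under 0.05 numbered 3888 in the 6-library fit and 1593 to 3018 when 1 library was left out (1593 without cis-3-hexenol replicate 2, 1620 without octanal replicate 1, 3018 without no odor replicate 3). The receptor share differed by -0.0209 to 0.0039 percentage points when 1 library was left out, with positive values without cis-3-hexenol replicate 1 (0.0039) and octanal replicate 3 (0.0027). Length offsets in the 12-library fit turned the split at an unadjusted p under 0.05 to 1251 higher and 1084 lower, and in the 6-library fit the split of calls to 360 higher and 357 lower.

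Calls between cis-3-hexenol and no odor numbered 1047 with only the 6 libraries of that comparison, 1284 with offsets, 880 with offsets and block, 198 with offsets in the 6 libraries, and 533 to 3150 when 1 library was left out. Between octanal and no odor they numbered 3307 with offsets in the 6 libraries and 4054 to 5764 when 1 library was left out. Of 3022 alternative fits of 168 named genes, 2615 kept the sign and the side of the threshold, 397 gained a call and 10 changed sign. The 12-library fit called 0 genes, so the 2615 are fits in which a gene stayed uncalled, and no call could be lost. S100a5 had a log2 fold change of -0.22 with offsets, -0.22 with offsets and block, -0.21 with offsets in the 6 libraries and -0.0046 to 0.070 when 1 library was left out (lowest without cis-3-hexenol replicate 1). Mt-Nd4l had -0.035 and -0.030 with offsets in 12 and 6 libraries, and -0.24 to 0.88 when 1 library was left out (below 0 without cis-3-hexenol replicate 1, and without replicate 2 at -0.04). Ltf ran from -0.43 to 0.16 (above 0 without octanal replicate 3), and Nr4a3 from -0.48 to 0.68 (below 0 without cis-3-hexenol replicate 1). The cause of these changes was not tested. Egr4 and Fosb stood under 1 CPM with cis-3-hexenol, with mean counts over the 6 libraries of 27.2 and 41.2. So did Npas4 and Olfr828, each with a mean count of 8.5.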

Other observations

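Smaller gene groups were measured beside those above. Cldn5, the claudin of endothelial tight junctions, stood at 23.3, 22.8 and 21.9 CPM with cis-3-hexenol, 17.4, 17.8 and 17.5 CPM with octanal and 36.9, 36.5 and 37.7 CPM with no odor, so that both odorant groups lay below no odor and cis-3-hexenol lay above octanal (log2 fold change 0.37, adjusted p = 0.121, SE 0.08 in edgeR over the 12 libraries; 6-library adjusted p = 0.0195). Atf5, a stress-responsive factor that acts in receptor choice, followed the same order, at 109.6, 109 and 91.4 CPM with cis-3-hexenol, 80.96, 73.8 and 79.7 CPM with octanal and 171, 158 and 188 CPM with no odor (log2 fold change 0.40, adjusted p = 0.121, SE 0.09; 6-library adjusted p = 0.00949). Of the 18 regulators of receptor choice and trafficking, with Atf5 among them, 7 were above and 11 below 0, with a median of -0.05. At an unadjusted p under 0.05, 3 were higher and 2 lower (6.09% and 6.93% of all genes were). Of 19 motile cilia genes 6 were above and 13 below 0, with a median of -0.08. Cfap52, a protein of ciliary axonemes, stood at 19.7, 21.9 and 21.3 CPM with cis-3-hexenol and 32.3, 26.5 and 26.01 CPM with octanal, without overlap (log2 fold change -0.43, adjusted p = 0.172, SE 0.12; 6-library adjusted p = 0.0239).

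Of 16 circadian clock genes 7 were above and 9 below 0, the median was -0.05, and 0 were called in the 6-library fit. The clock activator Arntl had a log2 fold change of -0.42, adjusted p = 0.248, SE 0.14, and the repressor genes Ciart and Nr1d1 ones of 0.53 and -0.22. Of 13 genes of microvillar, tuft and ionocyte cells 8 were above and 5 below 0, with a median of 0.13. At an unadjusted p under 0.05, 3 were higher and 1 lower (6.09% and 6.93% of all genes were). The 6-library fit called 1 higher and 1 lower (1.74% and 2.63% of all genes were). Their summed level was 293 to 335 CPM with cis-3-hexenol and 268 to 291 CPM with octanal. Among them Foxi1, the regulator of ionocytes, had 38.9, 38.5 and 33.5 CPM with cis-3-hexenol and 47.1, 43.6 and 45.8 CPM with octanal, without overlap (log2 fold change -0.30, adjusted p = 0.171, SE 0.08; 6-library adjusted p = 0.028). Of 53 clustered protocadherins, the adhesion proteins that give neurons an identity, 37 were below 0, with a median of -0.13, and 0 were called in the 6-library fit. The 18 interferon-stimulated genes had a median of 0.07 and the 15 glucocorticoid-responsive genes one of 0.05, and none of either reached an unadjusted p under 0.05.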
